A study of Mus musculus with 6 samples.

Results

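The 37 genes described here encode the proteins that carry a mammalian cell through mitosis: the cyclins and kinases that start it, the checkpoint, kinetochores and motors of the spindle, and the machinery that cuts the daughter cells apart. They were chosen by name, at any level, with earlier results of these data known. All 37 were found among the 21047 genes of the table. RNA was sequenced from iBMDM cells, a mouse line of immortalised macrophages grown from bone marrow, in 3 libraries with the genotype label A20KO and 3 with the label WT. A20 is the product of Tnfaip3, an enzyme that edits ubiquitin chains and limits NF-kB signalling. The labels name no treatment or time for either genotype, and the way A20 was removed and the number of clones are not given in the sources here. Whether replicates were grown as separate cultures is not stated either; p-values therefore measure the spread between these samples alone, which may be technical.

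Mitosis begins when cyclin-dependent kinase 1, bound to A- and B-type cyclins, is switched on by CDC25 phosphatases. Chromosomes then attach to spindle microtubules through kinetochores while the spindle checkpoint holds back the anaphase-promoting complex, a ubiquitin ligase whose activation by CDC20 ends mitosis. The mRNAs of most of these genes build up as cells pass from DNA replication to division, under the MuvB complex with B-MYB and FOXM1 and under NF-Y. An immortalised macrophage line divides continuously, unlike most macrophages of a tissue.

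Tnfaip3 itself had 194, 196 and 189 normalized reads in the A20KO libraries, against 389, 382 and 437 in the WT libraries (log2 fold change -1.06, SE 0.101, adjusted p = 7.1e-14). The libraries held 13308840 to 14433653 reads assigned to genes in A20KO and 13722924 to 15130697 in WT. All 10 macrophage markers examined had reads, and 9 of them differed, in both directions. Csf1r and Fcgr1 were higher in A20KO (log2 fold changes 1.10 and 2.58), and Mertk had 16.6, 4.89 and 15.8 normalized reads in A20KO and none in WT. Cd14, Itgam, Lyz2, Spi1, Ptprc and Cd68 were lower (log2 fold changes -0.81, -0.77, -0.57, -0.45, -0.26 and -0.15), and Adgre1, which encodes F4/80, did not pass (0.01). The summed macrophage markers were 28190.0 to 28350.0 normalized reads in A20KO and 32230.0 to 32870.0 in WT. Of markers of other cell types, 2 of 5 for B cells were measured, Cd79b and Cd79a, with sums of 64.4 to 79.8 in A20KO and 138 to 185 in WT, and 5 of 7 for granulocytes, with sums of 44.0 to 60.9 in A20KO and 107 to 147 in WT, where Elane and Mpo were at 0 in A20KO. Of T cell markers 1 of 5 was measured, Lck, with 44.99 to 46.8 in A20KO and 35.3 to 58.7 in WT. Fibroblast markers (3 of 7) summed to 0.976 to 3.91 in A20KO and 0 to 3.15 in WT, epithelial markers (1 of 4) to 0 to 0.978 in A20KO and 0 to 2.91 in WT, endothelial markers (3 of 4) to 2.93 to 8.78 in A20KO and 2.10 to 4.85 in WT, and erythroid markers (2 of 4) to 0.976 to 3.15 in A20KO and 0 to 7.77 in WT. The other markers of these lists, Cd3e, Ly6g and Epcam among them, were not analysed here, and the part of any marker in the results was not tested.

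Division genes differed between the genotypes by small amounts and in both directions, with more of them lower in A20KO. Of the 37, 16 were lower in A20KO, 5 were higher and 16 did not pass (limma adjusted p under 0.05 over all 17376 genes tested). The background was 19.6% of all genes tested lower and 20.3% higher, 39.8% in either direction. Among the 8212 genes that averaged 200 normalized reads or more, a level that all 37 exceed, it was 31.1% lower and 29.3% higher, 60.3% in either direction. The members' shares were 43.2% lower and 13.5% higher. The difference from these backgrounds was not tested, since the genes were chosen with earlier results known. On the log2(normalized reads + 1) scale, A20KO over WT, the median log2 fold change of the members was -0.046, beside 0.011 over all genes tested and -0.0045 over the 8212. It was -0.020 without A20KO replicate 2, -0.083 without A20KO replicate 3 and -0.086 without WT replicate 3. No member changed by 2-fold, while 9.27% of all genes tested and 4.47% of the 8212 passed with at least that change. The 5 that differed most were Cdc25b, Bub1 and Cdc25c, with log2 fold changes of -0.44, -0.40 and -0.37, and Ndc80 and Nuf2, with 0.49 and 0.36. In the coordinates of the authors' table (mm10), Cdc25b lies at chr2:131186949-131198497, Bub1 lies at chr2:127801122-127831865, Ndc80 lies at chr17:71496100-71526857 and Nuf2 lies at chr1:169497934-169531464. The authors' deposited table places an adjusted p-value under 0.05 beside the same 21 members, in the same directions. Of the 21 calls, 8 ended when the test was run without the trend of variance with level, namely those of Mki67, Cdk1, Ccnb1, Cdc20, Kif11, Ccnb2, Kif23 and Mad2l1, which left 11 members lower and 2 higher.

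**Figure D1:**
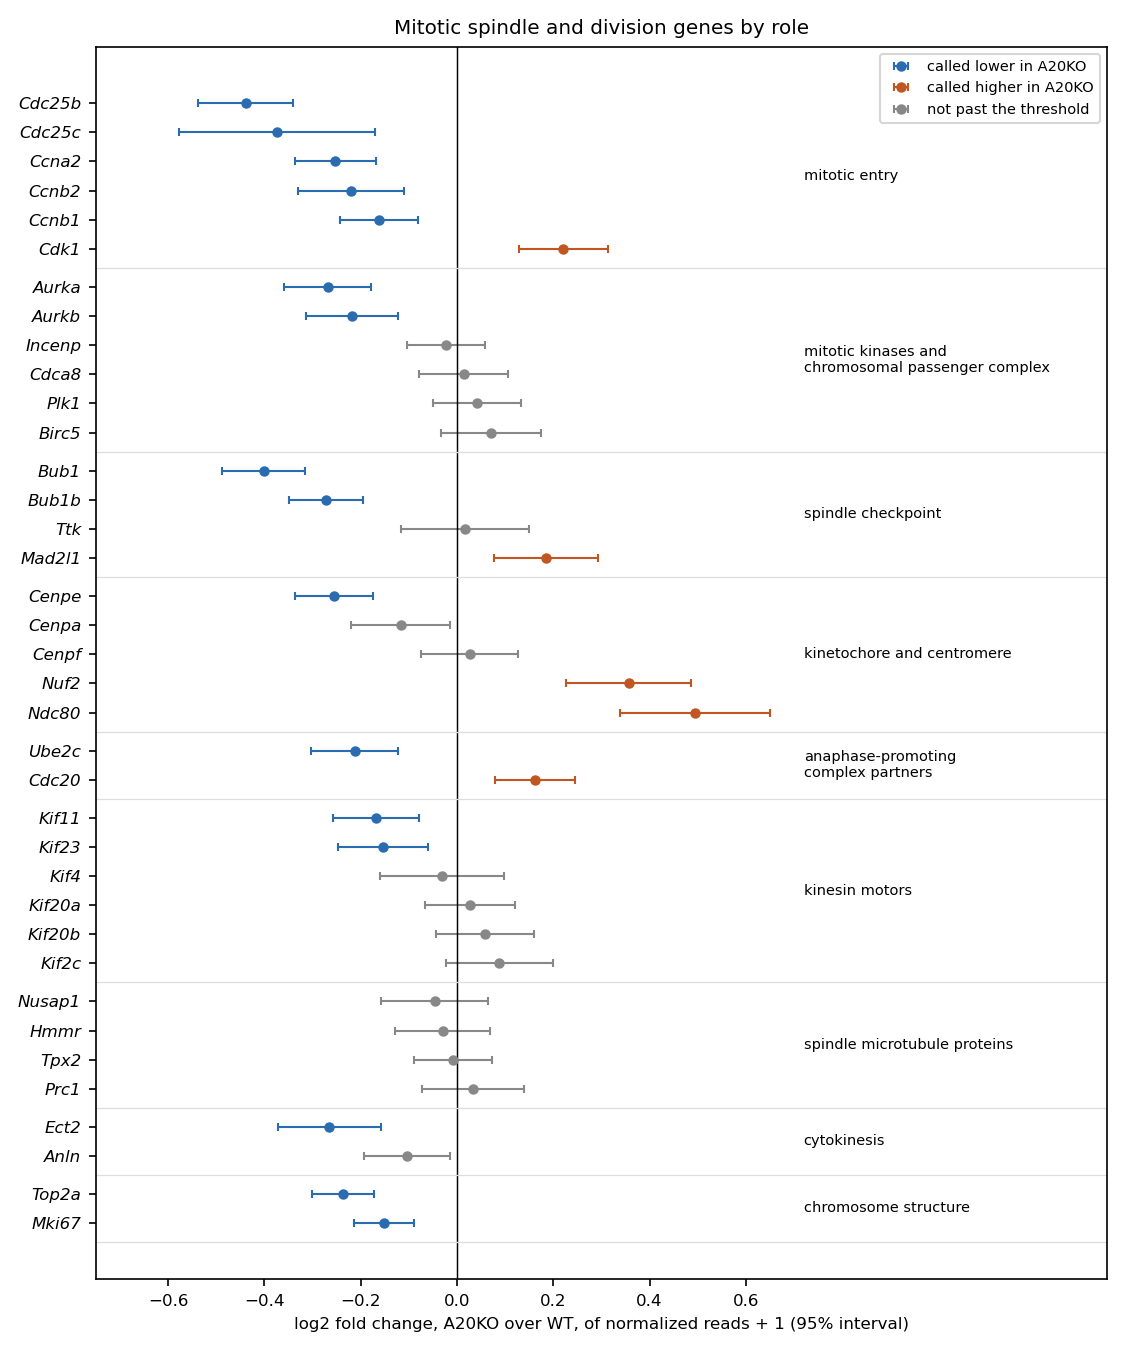
Log2 fold change of each of the 37 genes, A20KO over WT, of normalized reads + 1 (horizontal axis, points with 95% intervals from limma), grouped by role (rows); blue points were lower in A20KO, orange points higher and grey points did not pass. The points run from -0.44 for Cdc25b to 0.49 for Ndc80, and each of the 4 spindle microtubule proteins has an interval that includes 0.

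The reads of the 37 genes summed to 85582, 85885 and 86706 normalized reads in the A20KO libraries, against 94046, 92909.7 and 91943 in the WT libraries. The genotypes did not overlap, and the sum made up 0.613% ± 0.0065 of all normalized reads in A20KO and 0.646% ± 0.0080 in WT (SD, n = 3 each). The sum gives most weight to the genes with most reads, such as Mki67 (12203 in A20KO and 13556 in WT) and Top2a (7184 and 8459). Of the 37 genes, 5 were higher and 16 did not pass. For the sum in bulk RNA, fewer cells between DNA replication and division and less RNA per cell cannot be told apart. Within a genotype the libraries were close: the coefficient of variation of a member between replicates had a median of 3.31% in A20KO and 2.93% in WT, and at most 8.86% (Cdc25c) in A20KO and 9.47% (Ndc80) in WT. In 18 members all A20KO values lay below all WT values and in 6 all lay above, with a background of 33.4% below and 32.0% above among the 8212 genes (65.5% in all), and of 22.4% below and 24.5% above among all genes tested (46.9% in all). Besides the 21 members called, the genotypes did not overlap in Anln and Cenpa, which lay lower in A20KO, and in Birc5, which lay higher.

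**Figure D2:**
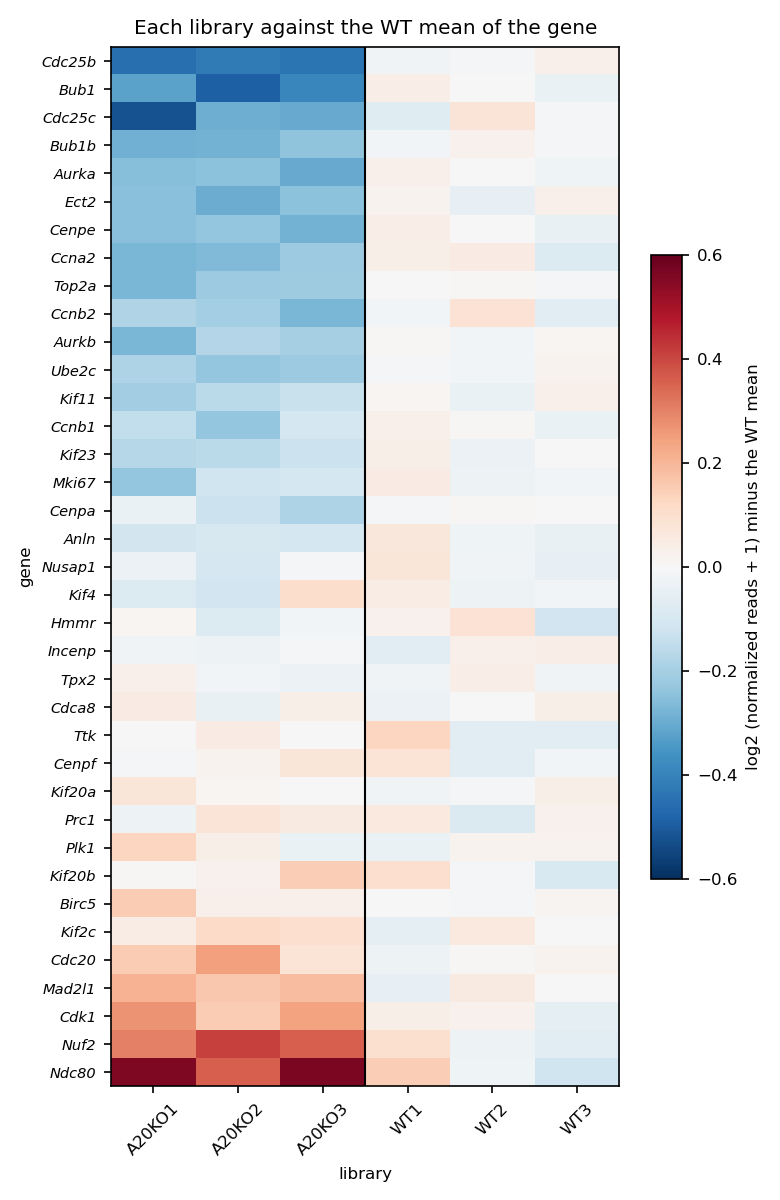
Log2(normalized reads + 1) of each gene in each library minus the mean of the gene in the WT libraries (colour), with genes as rows ordered by fold change and the 3 A20KO libraries left of the 3 WT libraries. The 3 A20KO columns share their colour in the rows at the top, from Cdc25b to Mki67, and at the bottom, from Cdc20 to Ndc80, while rows between them, such as Kif4 and Hmmr, mix colours within a genotype.

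Promoters of the division genes share short elements that the choice by name did not use. RefSeq windows of build GRCm38.p6, from 250 bases before to 50 bases after a transcription start, were matched for 31 of the 37 genes, all but Incenp, Kif20a, Ccna2, Aurkb, Cdc25c and Tpx2; this build is the assembly that mm10 names. The cell cycle genes homology region, spelled TTTGAA and bound by MuvB, stood on either strand in 23 of the 31 (74.2%), against 14.9% of 10729 tested genes with a window and 17.9% of all 32851 windows. With the variant TTCGAA counted as well, 25 of the 31 (80.6%) held it, against 16.9% of tested genes. The CCAAT box, the NF-Y element, was also found in 23 of the 31 (74.2%), against 42.8% of tested genes and 37.4% of all windows. The E2F-type sequence TTTNNCGC stood in 1 of 31 (3.23%), against 9.53% of tested genes and 5.17% of all windows, TATAAA in 1 of 31 against 9.14% and 13.6%, and the kappaB motif of NF-kB in 3 of 31 (9.68%) against 12.1% and 8.46%. Of the 30 distinct TTTGAA elements in the members' windows, 25 began within the last 100 bases before the start or after it. Both elements occurred among members of each call: TTTGAA was in 9 of 13 windows of members lower in A20KO, in 3 of 5 of those higher and in 11 of 13 of those that did not pass. A CCAAT box was in 13 of 13 windows of members lower in A20KO, in 2 of 5 of those higher and in 8 of 13 of those that did not pass; the difference between these shares was not tested. A match is a stretch of letters and not a measured site.

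Windows of 4 genes that were lower in A20KO are shown because they hold both elements and had the smallest adjusted p among called members that hold both: Top2a at chr11:99024140-99024439 (minus strand), Bub1b at chr2:118597961-118598260 (plus strand), Aurka at chr2:172370521-172370820 (minus strand) and Ect2 at chr3:27153829-27154128 (minus strand, 1 of its 2 windows). Ndc80 at chr17:71526808-71527107 and Cdk1 at chr10:69352863-69353162 (both minus strand) were higher in A20KO and were added for contrast after their values were seen. Each runs 5′ to 3′ toward the gene, and capitals mark TTTGAA and CCAAT, or TTCAAA and ATTGG where the element lies on the other strand.
Top2a: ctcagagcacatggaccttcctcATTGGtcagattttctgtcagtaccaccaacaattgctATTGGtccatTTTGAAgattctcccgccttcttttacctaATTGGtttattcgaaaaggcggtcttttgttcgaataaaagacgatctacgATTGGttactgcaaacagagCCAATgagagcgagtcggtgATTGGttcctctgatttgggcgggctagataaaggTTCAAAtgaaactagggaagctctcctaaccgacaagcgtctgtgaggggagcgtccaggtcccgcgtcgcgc
Bub1b: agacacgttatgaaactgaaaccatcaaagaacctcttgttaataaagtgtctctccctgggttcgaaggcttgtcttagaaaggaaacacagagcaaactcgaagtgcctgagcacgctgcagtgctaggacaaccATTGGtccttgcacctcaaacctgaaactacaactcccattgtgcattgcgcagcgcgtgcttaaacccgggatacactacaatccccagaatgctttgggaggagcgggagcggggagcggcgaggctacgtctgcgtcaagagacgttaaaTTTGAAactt
Aurka: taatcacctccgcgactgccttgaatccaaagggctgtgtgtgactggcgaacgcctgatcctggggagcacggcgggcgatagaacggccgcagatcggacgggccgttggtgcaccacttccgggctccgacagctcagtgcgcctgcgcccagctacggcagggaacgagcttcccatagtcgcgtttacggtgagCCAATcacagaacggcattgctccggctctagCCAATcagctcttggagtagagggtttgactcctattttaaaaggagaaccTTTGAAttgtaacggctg
Ect2: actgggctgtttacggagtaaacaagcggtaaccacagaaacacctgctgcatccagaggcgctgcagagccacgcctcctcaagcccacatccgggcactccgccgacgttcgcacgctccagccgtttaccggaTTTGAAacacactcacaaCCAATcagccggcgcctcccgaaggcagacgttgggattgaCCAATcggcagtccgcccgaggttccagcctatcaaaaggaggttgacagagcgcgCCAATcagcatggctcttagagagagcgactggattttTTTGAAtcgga
Ndc80: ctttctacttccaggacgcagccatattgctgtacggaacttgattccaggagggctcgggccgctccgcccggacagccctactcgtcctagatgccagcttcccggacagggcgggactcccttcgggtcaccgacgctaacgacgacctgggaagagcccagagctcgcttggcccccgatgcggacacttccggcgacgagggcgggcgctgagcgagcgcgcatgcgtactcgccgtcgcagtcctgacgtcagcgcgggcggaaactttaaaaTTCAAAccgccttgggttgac
Cdk1: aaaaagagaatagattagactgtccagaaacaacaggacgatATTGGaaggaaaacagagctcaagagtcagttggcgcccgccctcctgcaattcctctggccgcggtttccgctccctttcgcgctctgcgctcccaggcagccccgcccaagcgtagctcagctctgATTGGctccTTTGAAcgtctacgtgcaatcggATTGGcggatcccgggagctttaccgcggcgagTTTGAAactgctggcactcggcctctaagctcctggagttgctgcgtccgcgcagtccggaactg
Top2a carries 6 CCAAT boxes and Aurka 2, both with a homology region near the start. Cdk1, which moved the opposite way, carries 3 CCAAT boxes and 2 homology regions, and Ndc80 has 1 homology region and no CCAAT box.

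The 6 members grouped here under mitotic entry all passed, with the cyclins and phosphatases among them lower in A20KO and the kinase higher. Of the 8212 genes that averaged 200 normalized reads or more, 60.3% passed in either direction. The calls of Cdk1, Ccnb1 and Ccnb2 ended when the test was run without the trend of variance with level. Cdc25b, a phosphatase that removes the inhibitory phosphates of the kinase, had 1335, 1359 and 1346 normalized reads in the A20KO libraries, against 1800.4, 1811 and 1866 in the WT libraries (log2 fold change -0.44, SE 0.0496, adjusted p = 2.2e-11), the largest fall among the 37. Its A20KO values lay within a narrow band below every WT value. Cdc25c, a second such phosphatase and the member with the fewest reads, had 221, 260.2 and 258 normalized reads in the A20KO libraries, against 304, 336 and 318 in the WT libraries (log2 fold change -0.37, SE 0.102, adjusted p = 0.002). Ccna2, the A-type cyclin of DNA replication and early mitosis, had 2767, 2783 and 2879.6 normalized reads in the A20KO libraries, against 3427, 3461 and 3159.9 in the WT libraries (log2 fold change -0.25, SE 0.0421, adjusted p = 8.9e-07). The B-type cyclins, which bind the kinase at entry, were also lower without overlap: Ccnb1 had 3427, 3232 and 3531 normalized reads in the A20KO libraries, against 3878, 3818 and 3694 in the WT libraries (log2 fold change -0.16, adjusted p = 0.00073). Ccnb2 had 1209, 1187 and 1130.4 normalized reads in the A20KO libraries, against 1354, 1452 and 1305 in the WT libraries (log2 fold change -0.22, adjusted p = 0.00068). Cdk1, their catalytic partner, had 2434, 2248 and 2386 normalized reads in the A20KO libraries, against 2067, 2057 and 1939 in the WT libraries (log2 fold change 0.22, SE 0.0461, adjusted p = 5.8e-05), so that the kinase gene lay above WT in all 3 A20KO libraries while each of its 3 cyclin genes lay below. Of the 31-base words of Ccnb1, 27.8% also occur in other genes, as do 13.3% of those of Cdc25c and a smaller share of those of Ccna2, so these counts are uncertain.

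**Figure D3:**
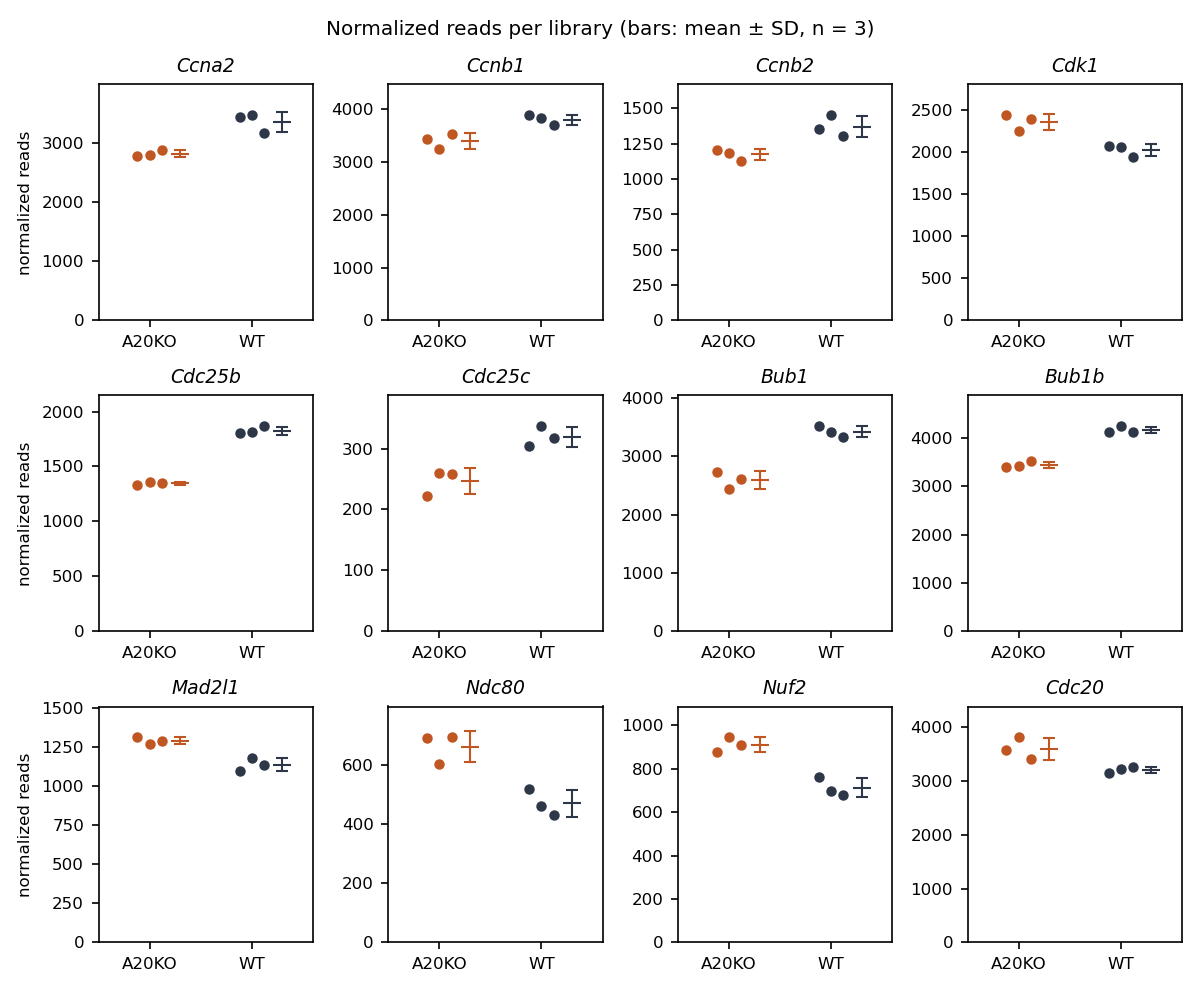
Normalized reads per library (vertical axes, from 0) for 12 members, with the A20KO libraries left of the WT libraries and bars giving the mean ± SD of 3 libraries. In each panel the genotypes do not overlap; Cdk1, Mad2l1, Ndc80, Nuf2 and Cdc20 are higher in A20KO and the other 7 lower.

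Both Aurora kinases were lower in A20KO, while Plk1 and the other subunits of the passenger complex did not pass. Aurka, which matures the spindle poles, had 1963, 1981 and 1899 normalized reads in the A20KO libraries, against 2395, 2340.1 and 2303 in the WT libraries (log2 fold change -0.27, SE 0.0453, adjusted p = 1.1e-06). Aurkb, the kinase of the chromosomal passenger complex that corrects faulty attachments, had 1581, 1691 and 1666 normalized reads in the A20KO libraries, against 1922, 1890.2 and 1929 in the WT libraries (log2 fold change -0.22, SE 0.0481, adjusted p = 0.00014). None of its partners in that complex passed, and their intervals included 0, although all A20KO values of Birc5 lay above all WT values. The log2 fold change of Incenp, the scaffold, was -0.02 (95% interval -0.10 to 0.06), that of Cdca8, which encodes borealin, was 0.01 (95% interval -0.08 to 0.11), and that of Birc5, which encodes survivin, was 0.07 (95% interval -0.03 to 0.18). Plk1, the polo-like kinase that acts from entry to cytokinesis, had 2585, 2428 and 2305 normalized reads in the A20KO libraries, against 2303, 2399 and 2402 in the WT libraries, values that overlap, with a log2 fold change of 0.04 (95% interval -0.05 to 0.13).

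The spindle checkpoint genes divided. Bub1, a kinetochore kinase of the checkpoint, had 2738, 2438 and 2606 normalized reads in the A20KO libraries, against 3518, 3419 and 3329 in the WT libraries (log2 fold change -0.40, SE 0.0431, adjusted p = 4.3e-12). Bub1b, which encodes BUBR1, a subunit of the complex that inhibits CDC20, had 3404, 3409.7 and 3512 normalized reads in the A20KO libraries, against 4111, 4236 and 4122 in the WT libraries (log2 fold change -0.27, SE 0.0386, adjusted p = 1.9e-08). Mad2l1, which encodes MAD2, another subunit of the same inhibitor, was higher, with 1315, 1273 and 1294 normalized reads in the A20KO libraries, against 1099, 1181 and 1136 in the WT libraries (log2 fold change 0.18, SE 0.0544, adjusted p = 0.0041). Ttk, the kinase MPS1 that starts checkpoint signalling, had 751, 778 and 750.1 normalized reads in the A20KO libraries, against 821, 719.7 and 716 in the WT libraries, and its log2 fold change was 0.02 (95% interval -0.12 to 0.15). Within one inhibitory complex the gene for one subunit was lower and that for another higher in A20KO.

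At the kinetochore the 2 largest rises among the 37 were in the genes of one heterodimer. Ndc80, which encodes the subunit that grips the microtubule, had 689, 601 and 692 normalized reads in the A20KO libraries, against 517, 459 and 429.99 in the WT libraries (log2 fold change 0.49, SE 0.0779, adjusted p = 2.4e-07). Nuf2, which encodes its partner, had 877, 945 and 911 normalized reads in the A20KO libraries, against 761, 696 and 679 in the WT libraries (log2 fold change 0.36, SE 0.0646, adjusted p = 4.8e-06). Neither overlapped WT; of the 31-base words of Ndc80, 10.7% occur in other genes. The other 2 subunits of the same four-part complex, looked up after these values were seen, did not move together: Spc25 was higher (705 ± 4.83 normalized reads in A20KO and 589 ± 30.3 in WT; log2 fold change 0.26, adjusted p = 0.0017) and Spc24 lower (446 ± 10.9 normalized reads in A20KO and 546 ± 26.3 in WT; log2 fold change -0.29, adjusted p = 0.0016). Cenpe, the kinesin that carries chromosomes to the spindle equator, had 3009.8, 3042 and 2941 normalized reads in the A20KO libraries, against 3682, 3588 and 3465 in the WT libraries (log2 fold change -0.26, SE 0.0405, adjusted p = 2.8e-07). Cenpf, a large protein of the outer kinetochore, had a log2 fold change of 0.03 (95% interval -0.07 to 0.13). Cenpa, the histone variant that marks the centromere, had 1489, 1399.7 and 1345 normalized reads in the A20KO libraries, against 1518, 1537 and 1532 in the WT libraries, which do not overlap, and a log2 fold change of -0.12 that did not pass (adjusted p = 0.065). It passed without A20KO replicate 1 (adjusted p = 0.024), and on recovered reads with edgeR scaled by TMM (0.046) and limma-voom (0.045), but not with edgeR scaled by RLE (0.057).

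The activator of the anaphase-promoting complex and the enzyme that hands it ubiquitin went opposite ways. Cdc20 had 3577, 3815 and 3407 normalized reads in the A20KO libraries, against 3151, 3230.3 and 3261 in the WT libraries (log2 fold change 0.16, SE 0.0414, adjusted p = 0.00094). Its exons overlap those of Elovl1 on the other strand, a gene that was itself higher, with 2889.8, 2903 and 2549.7 normalized reads in the A20KO libraries, against 2221, 2189 and 2239 in the WT libraries (log2 fold change 0.32, adjusted p = 1.6e-08). In the authors' coordinates Cdc20 spans chr4:118432901-118437352 and Elovl1 spans chr4:118428093-118432953, so they overlap only at their ends. Without a stated strand setting, reads from that overlap cannot be told apart. The part of Elovl1 in the Cdc20 result was not tested. Cdc20 shares 26.7% of its 31-base words with other genes, so its count is uncertain. Its call ended when limma was run without the trend of variance with level (adjusted p = 0.13). Ube2c had 2061, 1995 and 2018 normalized reads in the A20KO libraries, against 2334, 2322 and 2382 in the WT libraries (log2 fold change -0.21, SE 0.0449, adjusted p = 6.9e-05); 25.3% of its 31-base words occur in other genes, and it overlaps Tnnc2 on the other strand.

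Among the motors and crosslinkers most members did not pass, while 60.3% of the 8212 genes at 200 or more passed in either direction. Both of these groups are small, with 6 and 4 genes. Kif11, the kinesin that pushes spindle poles apart, had 2116, 2188 and 2229 normalized reads in the A20KO libraries, against 2463, 2377 and 2496 in the WT libraries (log2 fold change -0.17, adjusted p = 0.0015). Kif23, a kinesin of the central spindle, had 1802, 1814 and 1857 normalized reads in the A20KO libraries, against 2077, 1983 and 2026 in the WT libraries (log2 fold change -0.15, adjusted p = 0.0059). With Cenpe, described above, they were the kinesins that passed among the 37. The log2 fold changes of Kif20a, Kif20b, Kif4 and Kif2c were 0.03 (95% interval -0.07 to 0.12), 0.06 (95% interval -0.04 to 0.16), -0.03 (95% interval -0.16 to 0.10) and 0.09 (95% interval -0.02 to 0.20). Kif20a and Kif20b act late in mitosis, Kif4 compacts chromosomes and shapes the central spindle, and Kif2c takes microtubules apart. Exons of Kif20a overlap those of Cdc23 on the other strand, a gene that was lower (log2 fold change -0.23, adjusted p = 0.0013), and 26.7% of its 31-base words occur in other genes. None of the 4 spindle microtubule proteins passed, with no passing call under any alternative. Tpx2, which activates Aurora A and nucleates microtubules, had 3416, 3309.9 and 3268 normalized reads in the A20KO libraries, against 3299.97, 3446 and 3305 in the WT libraries, with a log2 fold change of -0.01 (95% interval -0.09 to 0.07), the closest to 0 among the 37. Those of Nusap1, Hmmr and Prc1, which bundle, anchor and crosslink microtubules, were -0.05 (95% interval -0.16 to 0.06), -0.03 (95% interval -0.13 to 0.07) and 0.03 (95% interval -0.07 to 0.14). Over all 16 members that did not pass, the intervals reached from -0.22 (Cenpa) to 0.20 (Kif2c).

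Of the cytokinesis genes Ect2, which activates RhoA at the cleavage furrow, was lower, with 1171, 1136 and 1177 normalized reads in the A20KO libraries, against 1415, 1349 and 1423 in the WT libraries (log2 fold change -0.27, SE 0.0534, adjusted p = 3.2e-05). Anln, which encodes the furrow scaffold anillin, had 2249, 2270.2 and 2255 normalized reads in the A20KO libraries, against 2544, 2382 and 2353 in the WT libraries; these do not overlap, yet the log2 fold change of -0.10 did not pass (adjusted p = 0.059). It passed without WT replicate 3 (adjusted p = 0.032), on recovered reads with edgeR scaled by TMM (0.042) and limma-voom (0.038), and when genes averaging under 5 were left out (0.049), but not with edgeR scaled by RLE (0.053). Both genes of chromosome structure were lower. Top2a, the topoisomerase that untangles sister chromatids, had 6992, 7263 and 7295 normalized reads in the A20KO libraries, against 8466, 8502 and 8409 in the WT libraries (log2 fold change -0.24, SE 0.0324, adjusted p = 7.8e-09). Mki67, which encodes the proliferation marker Ki-67, had 11530.0, 12492 and 12587 normalized reads in the A20KO libraries, against 14031, 13247 and 13388 in the WT libraries (log2 fold change -0.15, SE 0.0312, adjusted p = 4.7e-05), with 90.0% of the WT mean left in A20KO.

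Per kilobase of gene length, as the authors' table gives it, the members spanned a wide range of levels, and the genotype moved them little within it. Cdc20 was highest, with 1927 ± 109.6 normalized reads per kilobase in A20KO and 1721 ± 30.2 in WT (SD, n = 3 each). Mki67 came next in both genotypes, with 1213 ± 58.1 normalized reads per kilobase in A20KO and 1347 ± 41.5 in WT. Plk1 (1109 ± 63.9 normalized reads per kilobase in A20KO and 1077 ± 25.5 in WT) and Incenp (1035 ± 6.45 normalized reads per kilobase in A20KO and 1051 ± 43.7 in WT) followed, and in WT they differed by less than the SD of Incenp. The next 6 genes in the WT order, Bub1b, Top2a, Aurka, Ube2c, Ccnb1 and Ccnb2, lay between 768 and 805 normalized reads per kilobase in A20KO and between 895 and 972 in WT, and Ube2c, Ccnb1 and Ccnb2 differed among themselves in WT by less than their SD. Ndc80 was lowest in both genotypes, with 102 ± 8.01 normalized reads per kilobase in A20KO and 72.2 ± 6.84 in WT, and Cenpf lay just above it, with 107 ± 3.06 normalized reads per kilobase in A20KO and 105 ± 5.54 in WT. The gap between those 2 was smaller than the SD of Ndc80 in A20KO and larger than either SD in WT. Cdk1 stood above Cdc25b in A20KO (477 and 361 normalized reads per kilobase) and below it in WT (409.6 and 489.7). Before division by length, Cdk1 was above Cdc25b in both genotypes (2356 and 1346 normalized reads in A20KO, 2021 and 1826 in WT). The order of genes in this paragraph therefore depends on the gene length used.

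**Figure D4:**
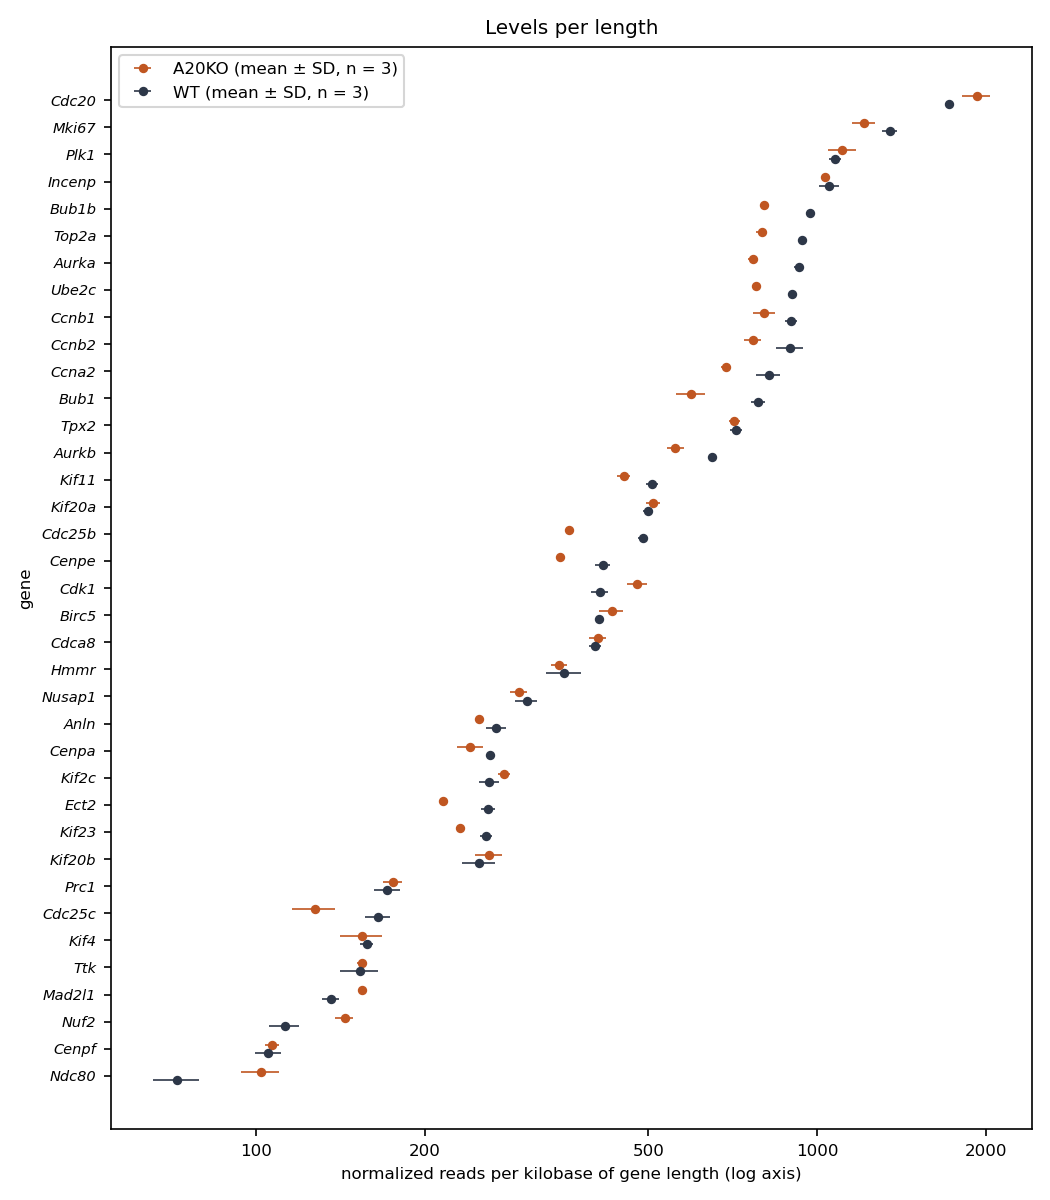
Normalized reads per kilobase of gene length (log axis) for the 37 genes, ordered by their WT level, with A20KO drawn in orange above WT in dark grey (mean ± SD, n = 3). Levels run from Ndc80 at the bottom to Cdc20 at the top, and the widest gaps between genotypes are those of Ndc80 and Cdc25b.

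The members lie on 15 chromosomes, and the calls were not those of one chromosome. Chromosome 2 held 7 members, of which Bub1, Cdc25b, Bub1b, Aurka and Ube2c were lower while Nusap1 and Tpx2 did not pass; of its 665 genes at 200 or more, 27.7% were lower and 27.1% higher. Chromosome 3 held Cenpe, Ccna2 and Ect2, all lower, beside 40.9% of its 406 such genes, and their median log2 fold change was -0.093. Chromosome 15, where 80.2% of 349 such genes were higher in A20KO, held none of the 37. In an alternative added after the data were seen, with each library centred on the median of its chromosome, the same 16 members were lower and the same 5 higher.

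Genes of the same machinery outside the 37 went both ways. Of 144 other division genes in 6 lists, 39 were lower and 39 higher, 27.1% each, with a median log2 fold change of -0.0031. These shares lie between the backgrounds. Over all genes tested 19.6% were lower and 20.3% higher, and among the 8212 genes at 200 or more 31.1% and 29.3%. The same backgrounds hold for each list below. Among 31 other kinesins, spindle assembly and cytokinesis genes 14 were lower and 5 higher (median -0.11). Cit, the citron kinase of the cleavage furrow, had 836 ± 20.9 normalized reads in A20KO and 1264 ± 24.9 in WT (log2 fold change -0.60, adjusted p = 9e-14), and Ckap5, a microtubule polymerase, was lower by a log2 value of -0.29. Racgap1, which binds Kif23 at the central spindle, was higher (0.28), as was Numa1, the spindle pole organiser (0.16). Of 36 checkpoint, kinetochore and centromere genes 7 were lower and 10 higher (median 0.017), among them the checkpoint gene Zw10 (-0.38), the centromere loading genes Mis18a (-0.50) and Hjurp (0.18), and Cenpm (0.99). Of 20 cohesin and condensin genes 5 were lower and 5 higher (median -0.049), with the condensin genes Ncapg (-0.43) and Smc4 (-0.36) lower and Ncaph2 (0.51) and the cohesin gene Rad21 (0.40) higher. Racgap1, Cenpm, Ncaph2 and Rad21 lie on chromosome 15, and centred on that chromosome their log2 fold changes were -0.13, 0.58, 0.096 and -0.014, of which Ncaph2 and Rad21 no longer passed (adjusted p = 0.09 and 0.81).

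Of 17 anaphase-promoting complex genes 5 were lower and 5 higher (median 0.032). Fzr1, the activator that follows CDC20 at the end of mitosis, had 1205 ± 59.4 normalized reads in A20KO and 1629.5 ± 76.3 in WT (log2 fold change -0.44, adjusted p = 2.7e-10), and Anapc2, a catalytic subunit, was also lower (-0.21). Anapc7 (0.34) and Fbxo5, an inhibitor of the complex (0.34), were higher. Of 17 entry and exit regulators 4 were lower and 5 higher (median 0.0024). Plk4, the kinase of centriole duplication, had 668 ± 64.2 normalized reads in A20KO and 969 ± 3.17 in WT (log2 fold change -0.54, adjusted p = 2.9e-10), and Pttg1, which encodes securin, was lower by a log2 value of -0.30 (adjusted p = 0.0043, and 0.11 without WT replicate 2). Cdc25a, the third phosphatase of the family, had 2013, 1898 and 2081 normalized reads in the A20KO libraries, against 1334, 1221 and 1389.6 in the WT libraries (log2 fold change 0.60, SE 0.0518, adjusted p = 9.7e-16), the opposite direction to Cdc25b and Cdc25c, and Ccnh, the cyclin of the kinase that activates cyclin-dependent kinases, was higher (0.32). Leaving out 1 library moved several of these counts: the anaphase-promoting complex genes lower were 3 without A20KO replicate 2 or 3 or WT replicate 1 or 2. The entry and exit regulators lower were 2 without A20KO replicate 3 or WT replicate 1, and 1 without WT replicate 2, which also left 3 higher. The other kinesins, spindle assembly and cytokinesis genes higher were 2 without A20KO replicate 2 or WT replicate 2 and 3 without A20KO replicate 3 or WT replicate 1. The cohesin and condensin genes lower were 8 without WT replicate 3. Without the trend of variance with level, fewer genes passed in all (2335 lower and 2440 higher). In that setting 7 of the other kinesins, spindle assembly and cytokinesis genes were lower, and 4 of the checkpoint, kinetochore and centromere genes. The cohesin and condensin genes lower were then 3, the anaphase-promoting complex genes 2 and the entry and exit regulators 1.

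The transcription factors named above for these promoters differed in direction. Foxm1 had 1294, 1344 and 1372 normalized reads in the A20KO libraries, against 1664, 1713 and 1855 in the WT libraries (log2 fold change -0.38, SE 0.0516, adjusted p = 4.8e-09). Mybl2, which encodes B-MYB and was named after its values were seen, had 3988, 3978 and 3942 normalized reads in the A20KO libraries, against 3409, 3538 and 3665 in the WT libraries (log2 fold change 0.17, SE 0.0392, adjusted p = 0.00033). Of 23 transcriptional regulators of cell cycle genes 4 were lower and 9 higher (median 0.085). Nfya, a subunit of NF-Y, was higher (0.36), as was the E2F partner Tfdp2, with 348 ± 24.5 normalized reads in A20KO and 117 ± 3.05 in WT (log2 fold change 1.56, adjusted p = 4.2e-18), and E2f2 was lower (-0.68).

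Genes of DNA replication, which comes earlier in the cell cycle than division, had another balance of calls. Of 39 DNA replication and S-phase genes 27 (69.2%) were higher in A20KO and 2 (5.13%) lower, with a median log2 fold change of 0.28. Over all genes tested 20.3% were higher and 19.6% lower, and among the 8212 genes at 200 or more 29.3% and 31.1%. Of the 37 division genes 5 were higher and 16 lower, with a median of -0.046. The difference between the lists was not tested. Mcm3, a subunit of the replicative helicase, had 5273 ± 82.2 normalized reads in A20KO and 3552 ± 64.0 in WT (log2 fold change 0.57, adjusted p = 8.4e-21), and Mcm6, another, had a log2 fold change of 0.57. The 2 that were lower were Cdc45 (-0.21, adjusted p = 0.0022, and 0.053 without WT replicate 2) and Orc3 (-0.19). Of 12 D cyclins, their kinases and inhibitors 4 were higher and 3 lower (median 0.13). Ccnd1, the cyclin D1 that responds to growth factors, and Cdkn1a, the inhibitor p21, were higher (1.09 and 0.85), and Cdkn2d, the inhibitor p19, and the kinase gene Cdk6 were lower (-1.40 and -0.39).

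**Figure D5:**
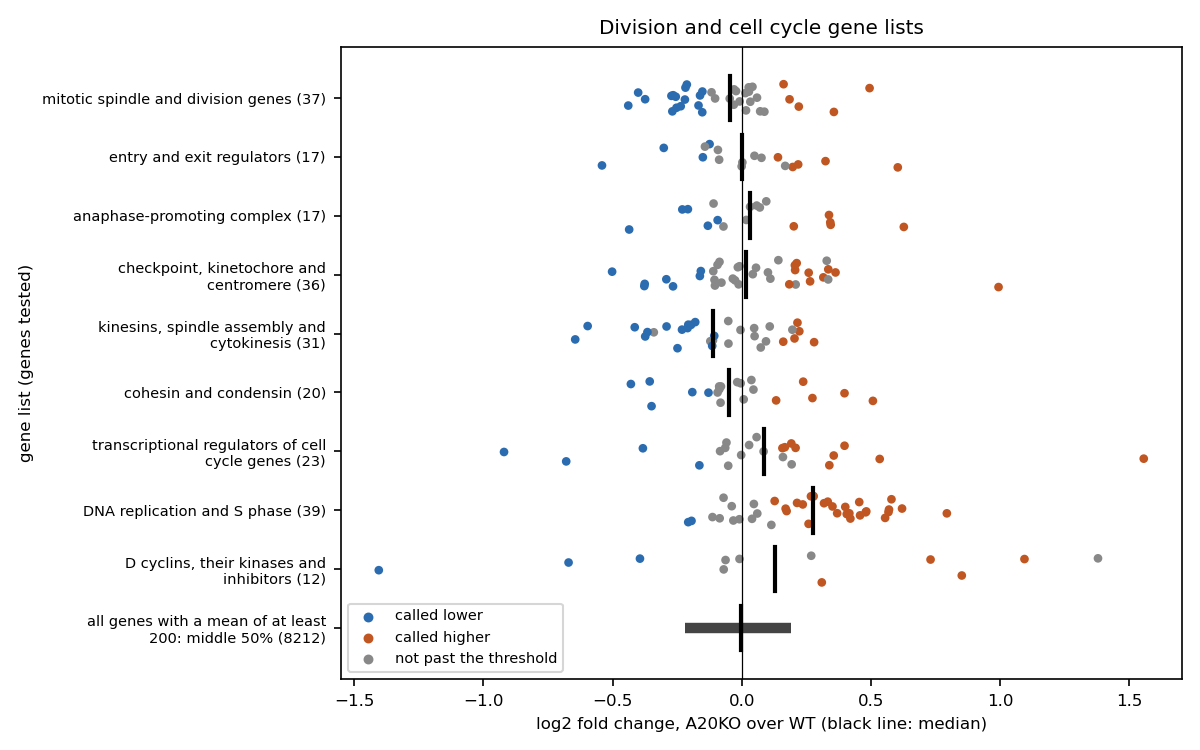
Log2 fold change, A20KO over WT (horizontal axis), of each gene in 9 division and cell cycle lists (rows, with the number tested), coloured blue where lower in A20KO, orange where higher and grey where not past the threshold; black lines are medians, and the bottom row shows the middle 50% of all 8212 genes at 200 or more. The division genes at the top centre just below 0 at -0.046, and the DNA replication genes at 0.28.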

How the data were processed

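Per the labels' protocols, RNA was taken up in Trizol and made into libraries with a SMARTer kit for mRNA. The submitters' processing notes name mm10; aligner, counter and strand setting are not given in the sources here. The authors deposited a normalized signal per gene and library, per the file headers, with group means, gene length, and per gene a log2 fold change, p-value and adjusted p-value. In each library 100.0% of values were whole multiples of 1 read (tolerance 0.001 reads), so each signal is reads over the library's size factor (0.9519 to 1.0491), and whole reads were recovered.

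Values were tested as log2(normalized read count + 1), over the 17376 genes with a mean of at least 1, with limma 3.58.1 (trend, robust) in R 4.3.3 and Benjamini-Hochberg adjustment; intervals are 95%. This scale understates changes of low genes. edgeR 4.0.16, DESeq2 1.42.0 and limma-voom on recovered reads were alternatives, and edgeR with TMM called 3371 genes lower and 3315 higher. The procedure was tested on simulated counts. Replicates differed beyond sampling noise (chi-square per degree of freedom 2.67 to 3.6).

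The 37 genes and all lists were chosen with earlier results of these data known. Named outside the 37 were Tnfaip3, overlapping neighbours and, per list, up to 2 genes per direction with the smallest adjusted p and a mean of at least 50; exceptions are stated. Of the 37, 10 share at least 10% of their 31-base words with other genes in GENCODE M21 transcripts (Ccna2, Ccnb1, Cdc20, Cdc25c, Kif20a, Kif4, Ndc80, Plk1, Prc1 and Ube2c), and their counts are uncertain. Tables and figures used pandas 2.3.3, numpy 2.4.6 and matplotlib 3.10.9.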

Additional observations from a re-analysis of the deposited data

How the results depend on the processing

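Across 19 alternatives no called member reversed, and 13 of the 21 calls passed in every one; the other 8 ended only without the variance trend, where 2 members were higher and 11 lower. The median log2 fold change of the members was -0.011 after scaling to library totals and -0.086 to -0.020 with 1 library left out, all below 0. Centred on each chromosome, Racgap1 reversed to -0.13, while Rad21 came to -0.014 and no longer passed. Same-numbered libraries did not deviate together (r = -0.004, -0.011 and 0.002), and not every library correlated best with its own. Whether they shared a culture, day or batch is not stated, and these correlations cannot decide it. With the replicate block 16 members were lower and 5 higher, and 3297 and 3432 genes in all. The promoter share held in the narrower window, from 100 bases before the start, with TTTGAA in 71.0% of members and 5.98% of tested genes. With 3 libraries a genotype, an exact permutation test of 1 gene cannot go below p = 0.1.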
